A study of Homo sapiens with 9 samples.

Results

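Aminoacyl-tRNA synthetases were followed through a knockdown series in HCT116 cells, an established human colorectal cancer line. The set held 38 genes of the 61806 identifiers in the count table, chosen by name: 19 enzymes of the cytosol, 16 enzymes of mitochondria (names ending in 2) and 3 scaffold proteins. Each of the 38 symbols matched exactly 1 Ensembl identifier, and all 38 passed the filter on low counts, as did 20868 identifiers in all. The enzymes for aspartate were not analysed here. Cells of a single line were transfected by lipid with a control siRNA (genotype entry Control) or with 1 of 2 siRNAs, called siRNA 1 and siRNA 2, that target EXOSC10-AS1, a non-coding transcript named for its antisense position to EXOSC10 (genotype entry EXOSC10-AS1 knockdown). Each of the 3 groups had 3 libraries of total RNA, and all carry the batch entry of day 3. The labels do not say whether replicates are separate transfections, so p values measure the spread between these libraries, which may be technical.

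Each synthetase joins 1 amino acid to its tRNAs and thereby sets which residue a codon adds to a protein. The enzymes fall into classes I and II by the fold of the catalytic domain. Most amino acids have separate nuclear genes for the cytosolic and the mitochondrial enzyme, while GARS1 and KARS1 each encode both forms. Several cytosolic enzymes sit in a multi-synthetase complex held together by AIMP1, AIMP2 and EEF1E1. ATF4, the transcription factor induced when eIF2 is phosphorylated during amino acid shortage, is known to switch on many cytosolic synthetase genes together with genes of amino acid synthesis and uptake.

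Depth ranged from 56.8 to 66.5 M counts per library. The targeted RNA had few counts, 4 to 26 in the control libraries, 0 to 4 with siRNA 1 and 0 to 13 with siRNA 2. The siRNA 1 range met that of control and the siRNA 2 range overlapped it. The extent of knockdown therefore cannot be read from these counts. Of the markers checked, EPCAM, KRT8, KRT18, KRT19 and CDH1 were above 70 CPM (counts scaled to library size) in all 9 libraries, and villin (VIL1) had 5 counts in 1 library and 0 in the other 8. PTPRC and CD3E were at 0 throughout, and the other leukocyte, fibroblast and endothelial markers stayed at or under 1.29 CPM, except COL1A1, which ranged over 58.5 to 60.3 CPM in control, 46.0 to 52.0 CPM with siRNA 1 and 34.5 to 39.5 CPM with siRNA 2 while COL1A2 stayed at or under 0.21 CPM. Expression followed GC content in 3 libraries. The correlation of log2 deviation from the control mean with GC content, across 12160 genes, was 0.570 for the first siRNA 1 library and -0.535 and -0.539 for siRNA 2 replicates 2 and 3, while the other 6 ranged from -0.181 to 0.0685. These 3 libraries stood apart by this measure, and values with the trend removed, or without these libraries, are given where they matter. In bulk RNA, a change in every cell and a change in part of the culture cannot be told apart.

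In control cells the cytosolic enzymes were the more abundant set. Per kb of the longest transcript, their mean levels ran from 16.3 CPM per kb for CARS1, the cysteine enzyme, to 72.1 for GARS1, the glycine enzyme, with a median of 51.7. Mitochondrial enzymes ran from 1.19 CPM per kb for FARS2 to 53.2 for IARS2, with a median of 7.34. IARS2, the mitochondrial isoleucine enzyme, was the only mitochondrial member with a mean above 22.6 CPM per kb, and its level of 53.2 ± 2.68 lay beside the 58.5 ± 0.455 of IARS1 (SD, n = 3). At the top of the order, GARS1 (72.1 ± 1.86), NARS1 (68.2 ± 0.907) and QARS1 (64.7 ± 1.76) were followed by SARS1 (62.0 ± 0.311) and then by IARS1, RARS1 (58.1 ± 1.91), AARS1 (56.7 ± 1.13) and FARSA (56.6 ± 1.56). In that last run each gene overlapped the next within 1 SD, while IARS1 and AARS1 did not overlap. The subunits of the phenylalanine enzyme, which work as a tetramer of both, differed, with FARSA at a mean of 56.6 and FARSB at 19.5 to 20.3 CPM per kb over the controls. The scaffold genes lay between 15.1 (AIMP2) and 25.2 CPM per kb (EEF1E1). Among pairs with the same amino acid, the cytosolic enzyme exceeded the mitochondrial one by 10.7 times for alanine, 10.3 times for asparagine and 1.58 times for histidine in CPM per kb. These ratios use transcript lengths annotated on another genome build than that of the counts and depend on which transcripts the cells use.

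**Figure D1:**
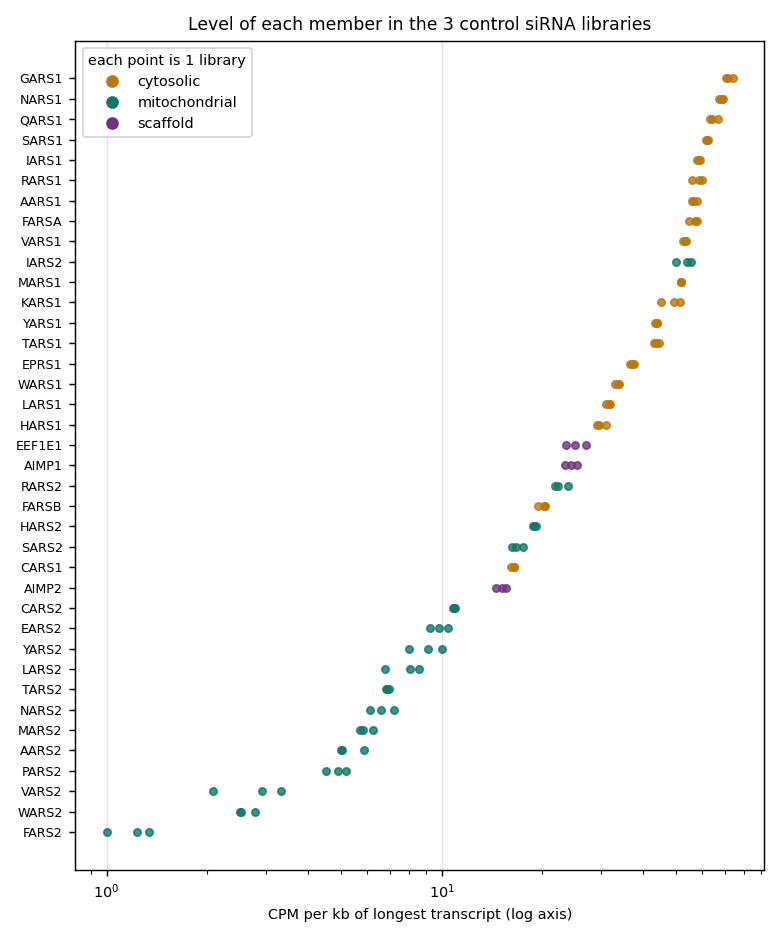
Levels in the 3 control siRNA libraries in CPM per kb of longest transcript (log axis), 1 point per library, coloured by set and ordered by mean. Means of the cytosolic enzymes lie between 16.3 and 72.1, and IARS2 is the only mitochondrial enzyme with a mean above 22.6.

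Promoters were searched for a short element because several of the cytosolic genes described below moved in the same direction. The letters TGATGNAA (TTNCATCA on the other strand), the core of the element through which ATF4 and C/EBP factors are known to act, were looked for on both strands from 250 bases before to 50 after each RefSeq start (build GRCh38.p14). A start was on hand for 33 of the 38 members. The core was found at 7 of 16 cytosolic genes, 1 of 14 mitochondrial genes and 0 of 3 scaffold genes, against 4.46% of 27305 genes with a promoter in the table and 3.62% of the 35116 promoters. Positions are counted from the first transcribed base as 1, with negative numbers before it. The 250 bases before the start of AARS1 (chr16:70289507-70289756, minus strand) are shown first because AARS1 had the largest called change in each comparison, with the match at -187 to -180 in capitals.
AARS1: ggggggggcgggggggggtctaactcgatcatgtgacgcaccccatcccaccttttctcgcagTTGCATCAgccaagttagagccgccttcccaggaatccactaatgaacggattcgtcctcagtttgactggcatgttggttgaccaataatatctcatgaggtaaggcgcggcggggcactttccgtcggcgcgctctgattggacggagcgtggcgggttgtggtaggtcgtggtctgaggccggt

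The other matches are given with short flanks so that the letters and their surroundings can be compared, 5′ to 3′ in the direction of transcription and with the match in capitals. At CARS1 (chr11:3057407-3057436, minus strand) it spans -2 to 6, at MARS1 (chr12:57488053-57488082, plus) -4 to 4 and at TARS1 (chr5:33440956-33440985, plus) 3 to 10.
CARS1: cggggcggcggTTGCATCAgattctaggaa
MARS1: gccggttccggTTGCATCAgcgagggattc
TARS1: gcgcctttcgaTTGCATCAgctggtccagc
GARS1: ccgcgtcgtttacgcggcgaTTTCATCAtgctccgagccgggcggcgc
IARS1: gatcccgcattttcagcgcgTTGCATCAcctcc
NARS1: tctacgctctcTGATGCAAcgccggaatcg
YARS2: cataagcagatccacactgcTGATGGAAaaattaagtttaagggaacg

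At GARS1 (chr7:30594825-30594872, plus) the match lies at -33 to -26, at IARS1 (chr9:92293698-92293730, minus) at -13 to -6 and at NARS1 (chr18:57621804-57621833, minus) at 15 to 22. YARS2 (chr12:32756067-32756114, minus), the mitochondrial tyrosine enzyme, had its match far from the start, at -197 to -190. Of these, 6 of the 7 cytosolic matches read TTGCATCA or its complement TGATGCAA, and that of GARS1 reads TTTCATCA. CARS1, GARS1 and TARS1 have 2 starts in the table, and the match lies by 1 of them. A match is a description of the sequence and does not show binding.

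With siRNA 1, cytosolic synthetases were mostly higher than in control. Of 19, 7 rose and 2 fell (edgeR quasi-likelihood test, Benjamini-Hochberg adjusted p under 0.05), where 3.72% of all genes tested were called higher and 3.36% lower. The median log2 change of the 19 was 0.23, and of all genes -0.02. AARS1, the alanine enzyme, stood at 194, 196 and 201 CPM in control and at 335, 291 and 286 CPM with siRNA 1, a log2 change of 0.63 ± 0.08 (SE; adjusted p = 0.0018). No siRNA 1 library overlapped a control, a separation that 17% of all genes showed upward and 17.8% downward, and replicate 1, a library with a GC trend, was the highest.

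CARS1 rose from 94.1, 92.4 and 94.3 CPM to 129.9, 115 and 110.3 CPM, a log2 change of 0.34 ± 0.07 (adjusted p = 0.024). TARS1, the threonine enzyme, rose from 189, 186 and 192 to 228, 249 and 238 CPM, also by 0.34 ± 0.06 (adjusted p = 0.0087). In both genes all siRNA 1 libraries lay above all controls. SARS1, the serine enzyme, rose by 0.33 ± 0.06 (adjusted p = 0.013), KARS1, the lysine enzyme, by 0.29 ± 0.07 (adjusted p = 0.026), GARS1 by 0.28 ± 0.06 (adjusted p = 0.019) and EPRS1, which charges both glutamate and proline tRNAs, by 0.25 ± 0.06 (adjusted p = 0.042).

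Against this direction, QARS1 and WARS1 fell. QARS1, the glutamine enzyme, stood at 179, 188 and 181 CPM in control and 139, 125 and 123 CPM with siRNA 1, a log2 change of -0.50 ± 0.08 (adjusted p = 0.0049). WARS1, the tryptophan enzyme, went from 102, 105 and 104 CPM to 82.9, 85.3 and 79.9 CPM, a change of -0.32 ± 0.06 (adjusted p = 0.014). Neither gene's siRNA 1 libraries overlapped the controls. The 10 cytosolic members not called ranged from -0.03 (RARS1) to 0.27 (FARSB), among them MARS1 (0.24 ± 0.07, adjusted p = 0.067) and LARS1 (0.23 ± 0.07, adjusted p = 0.091).

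Leaving out a control library (1, 2 or 3) took the 9 cytosolic calls to 2, 2 or 3, and leaving out either siRNA 1 replicate 2 or replicate 3 took them to 5. It was 14 without siRNA 1 replicate 1, and 14, with 12 up and 2 down, with the GC trend removed. Over all genes the called share was 7.08%, and 2.2, 2.02 and 2.09% without the 3 controls in turn. It rose to 11.7% without siRNA 1 replicate 1 and to 19.6% with the GC trend removed. The calls of AARS1 and QARS1 were kept in each of 18 alternatives. The calls lost with a library left out reached adjusted p of 0.119 for CARS1, 0.0574 for TARS1 and 0.0842 for WARS1 without control replicate 2, 0.0785 for SARS1 without control replicate 1, 0.134 for KARS1 without control replicate 2, and 0.103 and 0.16 for GARS1 and EPRS1 without control replicate 3.

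**Figure D2:**
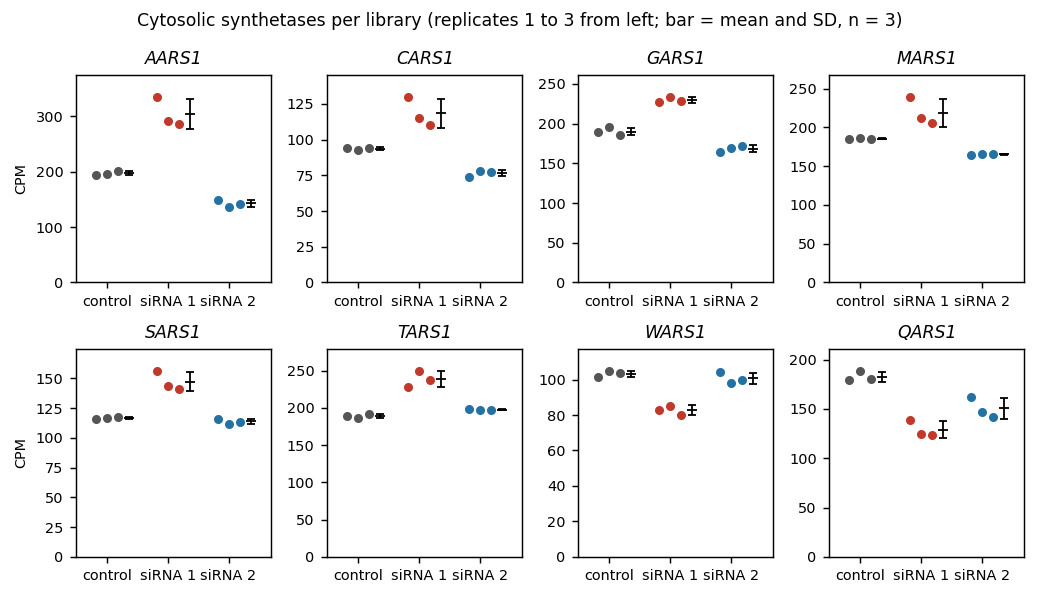
CPM in each of the 9 libraries for 8 cytosolic synthetase genes, with points for replicates 1 to 3 from left to right and bars for mean and SD (n = 3). AARS1 and CARS1 lie above control with siRNA 1 and below it with siRNA 2, while QARS1 lies below control in both.

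Among mitochondrial enzymes, EARS2 and MARS2 rose with siRNA 1. Of 16, 2 rose and 0 fell by edgeR, with 7 of 16 at an unadjusted p under 0.05, and DESeq2 called 3, all higher. The shares of all genes called were 7.08% by edgeR and 13.9% by DESeq2. EARS2, the mitochondrial glutamate enzyme, which also charges the mitochondrial glutamine tRNA with glutamate as the step before amidation, had 38.8, 36.7 and 41.3 CPM in control and 54.1, 51.2 and 53.6 CPM with siRNA 1. Its log2 change was 0.45 ± 0.07 (adjusted p = 0.0072). MARS2, the mitochondrial methionine enzyme, had 18.8, 17.6 and 17.2 CPM in control and 23.5, 24.8 and 23.5 CPM with siRNA 1, a change of 0.42 ± 0.10 (adjusted p = 0.037). Libraries of neither gene overlapped between the groups. The median over the 16 was 0.09, with a range from -0.22 (RARS2) to 0.45. The EARS2 call was lost without control replicate 2 (adjusted p = 0.0512), and that of MARS2 without each control and 4 of the siRNA libraries, up to 0.146 without control replicate 3.

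With siRNA 2, cytosolic synthetases did not share a direction. Both siRNAs were set against the same 3 control libraries, so their values are given side by side only. Of 19, 2 rose and 3 fell, where 6.15% of all genes were called higher and 7.61% lower, and the median was -0.04. AARS1 had the largest called change, at 149.6, 136 and 142 CPM, all below the control range of 194 to 201 CPM, with a log2 change of -0.47 ± 0.08 (adjusted p = 0.0041). Such separation was seen for 20.2% of all genes downward and 19.7% upward. CARS1 fell to 74.1, 78.2 and 77.5 CPM, by 0.29 ± 0.07 on the log2 scale (adjusted p = 0.030). QARS1 fell to 163, 147 and 142 CPM, a change of -0.28 ± 0.08 (adjusted p = 0.036), which was -0.18 with the GC trend removed (adjusted p = 0.012). FARSB, the beta subunit of the phenylalanine enzyme, rose from 68.5, 65.6 and 68.0 CPM to 82.5, 88.9 and 85.9 CPM, a change of 0.35 ± 0.09 (adjusted p = 0.029) that was 0.23 with the trend removed (adjusted p = 0.0040). HARS1, the histidine enzyme, rose by 0.22 ± 0.06 (adjusted p = 0.045), and not with the trend removed (0.15, adjusted p = 0.055).

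Of the cytosolic members with siRNA 2 that were not called, GARS1 (-0.17 ± 0.06, adjusted p = 0.072) and MARS1 (-0.17 ± 0.07, adjusted p = 0.14) lay below control in every library, and IARS1 (0.25 ± 0.08, adjusted p = 0.055) above. FARSA and YARS1 also lay below control in every library, and EPRS1, KARS1, NARS1 and TARS1 above. Over all genes, 20.2% lay wholly below control and 19.7% wholly above. The 5 cytosolic calls fell to 1 without each control library and without siRNA 2 replicates 2 or 3, and to 2 and 3 without siRNA 1 replicates 2 and 3, which share the estimate of the spread. They were 11 without siRNA 1 replicate 1, where 24.4% of all genes were called. That share was 13.8% with all 9 libraries and 4.98 to 5.1% without a control. Without any 1 of these libraries, AARS1 was still called. CARS1 reached 0.128 without control replicate 3, FARSB 0.113 without siRNA 2 replicate 2, QARS1 0.156 without control replicate 2 and HARS1 0.178 without siRNA 2 replicate 3 (adjusted p).

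Among mitochondrial enzymes, EARS2 and HARS2 rose and RARS2 fell with siRNA 2, out of 16, where 13.8% of all genes were called. EARS2 stood at 49.2, 53.0 and 51.1 CPM against 36.7 to 41.3 CPM in the same controls as above, a log2 change of 0.39 ± 0.07 (adjusted p = 0.0078). HARS2, the mitochondrial histidine enzyme, rose from 48.1, 46.9 and 47.5 CPM to 58.9, 58.7 and 56.5 CPM, by 0.29 ± 0.07 (adjusted p = 0.022). RARS2, the mitochondrial arginine enzyme, fell from 43.3, 40.6 and 39.5 CPM to 31.9, 31.8 and 32.3 CPM, a change of -0.36 ± 0.08 (adjusted p = 0.017). In these 3 genes no siRNA 2 library overlapped a control. VARS2 had the most negative value, -0.54 ± 0.32 (adjusted p = 0.31), with 17.1, 9.64 and 7.94 CPM against 20.04, 17.6 and 12.6 CPM in control, and was the most variable member among controls, with a coefficient of variation of 22.8%. Leaving out a control library (1, 2 or 3) took the 3 mitochondrial calls to 1, 0 or 1. Leaving out siRNA 2 replicate 2 or 3 took them to 1. They were 5 without siRNA 1 replicate 1, where 24.4% of all genes were called. The EARS2 call was lost without control replicate 2 (adjusted p = 0.0513). HARS2 reached 0.100 there and RARS2 0.0848 without control replicate 1.

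**Figure D3:**
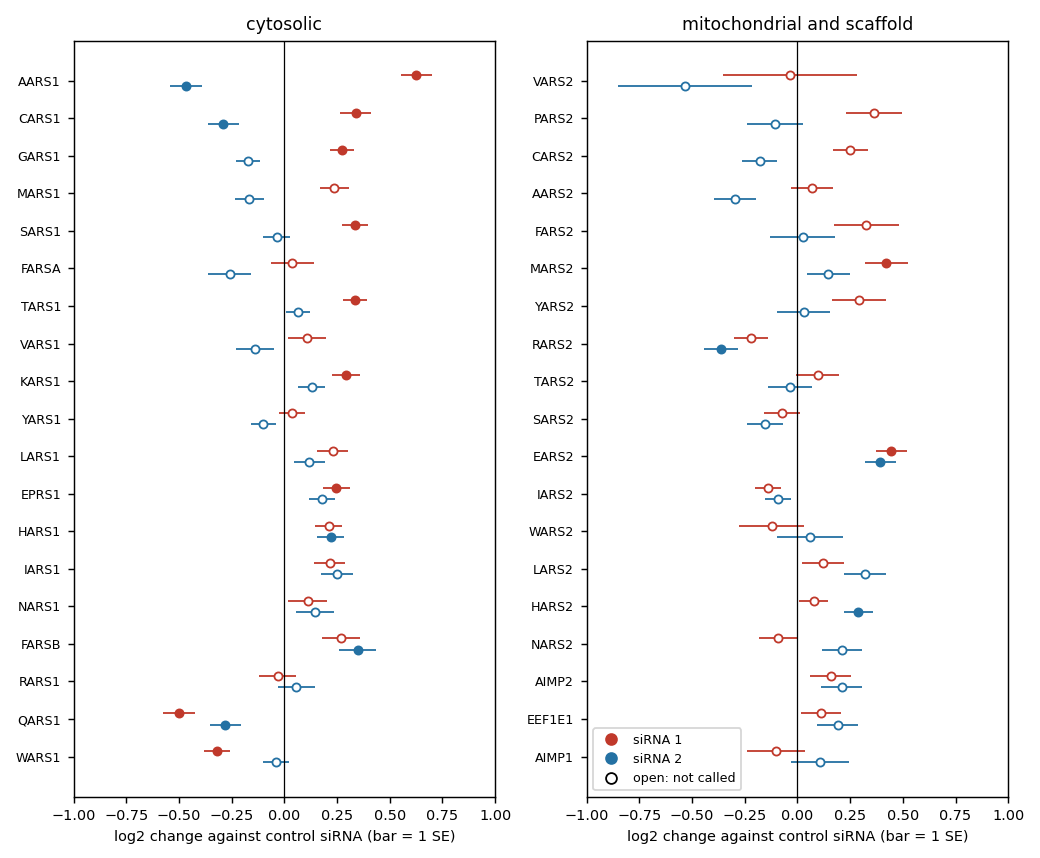
Log2 change of each member with siRNA 1 and siRNA 2 against the same 3 control libraries, with bars of 1 SE and filled points for adjusted p under 0.05. AARS1 lies at 0.63 and -0.47, QARS1 is negative and EARS2 positive in both.

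In the direct comparison of siRNA 2 with siRNA 1, no level was set against control, but the control libraries entered the fit. This comparison found AARS1, CARS1, GARS1, MARS1, SARS1 and TARS1 lower and WARS1 higher with siRNA 2. Of 19, 6 were lower and 1 higher with siRNA 2, where 12.3% of all genes were called lower and 10.1% higher. AARS1 was lower by 1.09 ± 0.08 in log2 terms (-1.09, adjusted p = 4.1e-05), or 0.469 times the siRNA 1 level, with 149.6, 136 and 142 CPM against 335, 291 and 286 CPM. CARS1 differed by -0.63 ± 0.07 (adjusted p = 0.00058), with 74.1 to 78.2 CPM against 110.3 to 129.9 CPM. For both genes the ranges were far apart.

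GARS1 had 164, 169.6 and 172 CPM with siRNA 2 and 227, 234 and 229 CPM with siRNA 1, a difference of -0.45 ± 0.06 (adjusted p = 0.00081). MARS1, the methionine enzyme, had 165, 166 and 165 CPM against 239, 212 and 205 CPM, a difference of -0.40 ± 0.07 (adjusted p = 0.0036). SARS1 (-0.37 ± 0.06, adjusted p = 0.0036) and TARS1 (-0.27 ± 0.06, adjusted p = 0.010) were also lower. WARS1 went the other way, with 104, 98.3 and 99.6 CPM against 82.9, 85.3 and 79.9 CPM (0.28 ± 0.06, adjusted p = 0.011). In all 7 genes the libraries of the siRNAs did not overlap, as for 19.2% of all genes downward and 19.4% upward. QARS1 was 0.22 ± 0.08 higher with siRNA 2 and not called (adjusted p = 0.060), although it was called with the GC trend removed (0.38).

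Each of these 7 calls was kept without any single library, with the count of 7 cytosolic calls going to between 7 and 9. TARS1 and WARS1 were not called when only the 6 libraries compared entered the fit (adjusted p = 0.057 and 0.059). That fit called 5 cytosolic genes, all lower, and 11.6% of all genes, against 22.4% with all 9 libraries. With the GC trend removed the 7 differences were -0.97 (AARS1), -0.54 (CARS1), -0.44 (GARS1), -0.27 (MARS1), -0.30 (SARS1), -0.39 (TARS1) and 0.36 (WARS1). MARS1 shares exonic bases with DDIT3, which is read from the other strand, and no source used here says whether counting used strand. DDIT3 stood at 20.7, 17.9 and 20.5 CPM with siRNA 1 and 5.67, 5.72 and 5.88 CPM with siRNA 2, beside MARS1 means of 219 and 165 CPM, and its part in the MARS1 difference was not tested.

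Among the cytosolic genes, the 7 with the promoter match shown above had 5 lower and 0 higher with siRNA 2 than with siRNA 1, and a median difference of -0.40. These were AARS1, CARS1, GARS1, MARS1 and TARS1, while IARS1 (0.03 ± 0.08) and NARS1 (0.04 ± 0.09) had the match and were not called. Without the 3 libraries with a GC trend, which leaves 1 siRNA 2 library assumed to vary like the other groups, IARS1 and NARS1 were at -0.15 and -0.13. That shift was not particular to them, as only 2 of all 19 cytosolic genes were then above 0, with a median of -0.15. In the fit of all 9 libraries, the 9 genes with a promoter but no match had 1 lower (SARS1) and 1 higher (WARS1), with a median of 0.01. By a background list of cytosolic synthetases known as ATF4 targets, 6 of 12 listed genes were lower and 1 higher, and 0 of the other 7 were called by edgeR. Of those 7, 4 had an unadjusted p under 0.05, DESeq2 called 2 (FARSA lower, QARS1 higher), limma-voom called 0, and with the GC trend removed 2 were called. With a replicate block in the edgeR fit, 3 of the 7 were called, 1 higher and 2 lower. Of all genes, DESeq2 called 28.7%, and 27.1% were called with the GC trend removed and 24.7% with the replicate block. The ATF4 list and the motif share 7 genes. The edgeR counts in this paragraph are to be read against 12.3% of all genes called lower and 10.1% higher. Of the 7 enzymes of the multi-synthetase complex 1 was lower, and of the 12 outside it 5 were lower and 1 higher. Class I enzymes had 2 lower and 1 higher of 9, and class II enzymes 4 lower of 9, with EPRS1, which has a part of each class, left out. These are counts over genes chosen with earlier results known, and no test of one list against another was made.

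**Figure D4:**
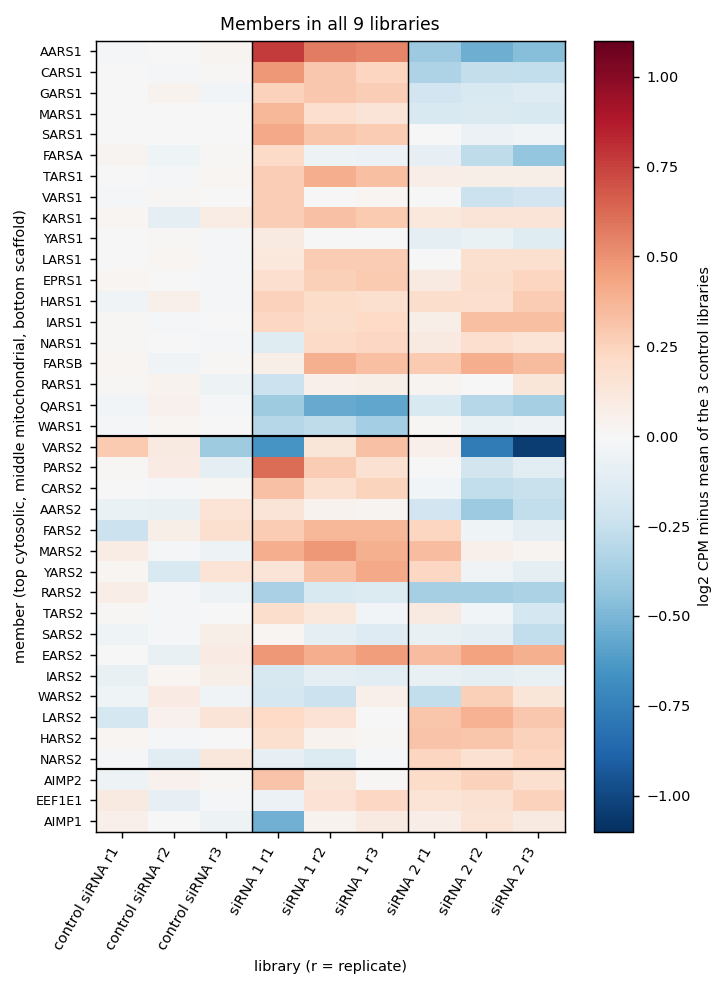
Log2 CPM minus the mean of the 3 control libraries for all members (rows, by set) in all 9 libraries (columns). AARS1, CARS1 and GARS1 are above control in all siRNA 1 libraries and below it in all siRNA 2 libraries, and VARS2 varies within every group.

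Of 16 mitochondrial enzymes, 3 were lower and 1 higher with siRNA 2 than with siRNA 1, a share near the 22.4% of all genes called in this comparison. CARS2, the mitochondrial cysteine enzyme, had 37.5, 31.7 and 32.2 CPM against 47.8, 43.2 and 45.4 CPM (-0.43 ± 0.08, adjusted p = 0.0069), and -0.28 with the GC trend removed (adjusted p = 0.0036). PARS2, the mitochondrial proline enzyme, had 11.5, 9.89 and 10.5 CPM against 17.5, 13.8 and 12.8 CPM (-0.47 ± 0.13, adjusted p = 0.031). The PARS2 call ended without siRNA 1 replicate 1, its highest library, without any control and without siRNA 2 replicate 2 (adjusted p = 0.114, the highest) or 3. The 4 mitochondrial calls became 2 without any 1 of the controls or siRNA 1 replicates 2 and 3, and 1 without siRNA 2 replicate 2 or 3.

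AARS2, the mitochondrial alanine enzyme, had 17.6, 15.5 and 16.9 CPM against 22.6, 20.9 and 20.8 CPM (-0.36 ± 0.10, adjusted p = 0.028). With the GC trend removed the AARS2 difference was -0.10 (adjusted p = 0.44), and the call also ended without either of replicates 2 and 3 of each siRNA, up to an adjusted p of 0.112 without the second siRNA 2 library. NARS2, the mitochondrial asparagine enzyme, had 19.6, 18.7 and 19.7 CPM against 15.7, 15.1 and 16.4 CPM (0.30 ± 0.09, adjusted p = 0.045). That call was lost without any 1 of the 9 libraries and with the trend removed (0.19, adjusted p = 0.18). The ratio of cytosolic to mitochondrial enzyme was higher in every siRNA 1 library than in every siRNA 2 library for 4 of 15 pairs, those for alanine, histidine, leucine and serine. The gap was small for histidine (log2 ratio of 1.21 or more against 1.17 or less) and leucine (1.93 against 1.90). In 6 of the 15, those of FARSA and FARSB with FARS2 and the arginine, valine, tryptophan and tyrosine pairs, the mean ratio was instead higher with siRNA 2. Among these, every siRNA 2 library was higher for arginine (1.97 to 2.08 against 1.72 to 1.82) and for FARSB with FARS2 (3.92 to 4.32 against 3.65 to 3.90). No share of such separation over other gene pairs was taken. For alanine, log2 AARS1 minus log2 AARS2 was 3.15 to 3.34 in control libraries, 3.78 to 3.89 with siRNA 1 and 3.07 to 3.13 with siRNA 2, ranges that did not overlap. For serine, log2 SARS1 minus log2 SARS2 was 1.70 to 1.79 in control, 2.15 to 2.18 with siRNA 1 and 1.79 to 1.99 with siRNA 2.

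**Figure D5:**
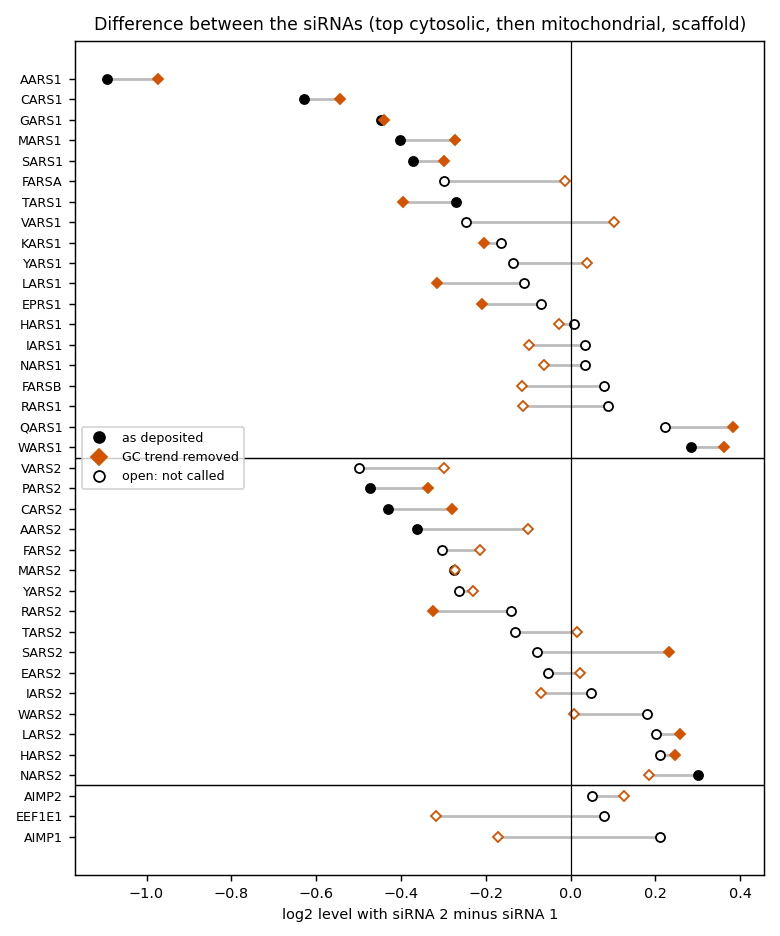
Log2 level with siRNA 2 minus siRNA 1 for each member as deposited (circles) and with the GC trend removed (diamonds), filled where adjusted p is under 0.05. AARS1, CARS1 and GARS1 change little between the settings, while AARS2 moves from -0.36 to -0.10.

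VARS1 and FARSA, the valine enzyme and the alpha subunit of the phenylalanine enzyme, were not called by edgeR in any of the 3 comparisons, and their libraries split along the GC trend. DESeq2 called FARSA lower with siRNA 2 than with siRNA 1 (-0.29), and VARS1 was called higher with siRNA 2 than in control with the trend removed (0.16). VARS1, whose longest transcript has a GC content of 62.6%, had 227, 232 and 229.7 CPM in control, 277, 230.4 and 233 CPM with siRNA 1 and 231, 195 and 198 CPM with siRNA 2. FARSA, at 60.3% GC, had 119, 113 and 117 CPM in control, 135, 112 and 111 CPM with siRNA 1 and 109, 96.1 and 86.5 CPM with siRNA 2. In both genes the high library was siRNA 1 replicate 1 and the low ones were siRNA 2 replicates 2 and 3, the 3 libraries with a trend. IARS1, LARS1, NARS1, RARS1 and YARS1 were also not called by edgeR in any comparison, nor were the mitochondrial FARS2, IARS2, LARS2, SARS2, TARS2, VARS2, WARS2 and YARS2. Of these mitochondrial enzymes, LARS2, the mitochondrial leucine enzyme, had the lowest adjusted p, 0.058 with siRNA 2, at 0.32. Of all these genes, DESeq2 called LARS1 higher with siRNA 1 (0.23) and IARS1 (0.26) and LARS2 (0.33) higher with siRNA 2.

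Set medians were also taken per library. Relative to the control mean, the median cytosolic member was at 0.23, 0.21 and 0.22 log2 units in the siRNA 1 libraries and at 0.01, -0.06 and -0.04 with siRNA 2. The median mitochondrial member was at 0.16, 0.12 and 0.04 with siRNA 1 and at 0.08, -0.05 and -0.11 with siRNA 2. With the GC trend removed, the cytosolic medians were 0.26, 0.18 and 0.17 with siRNA 1 and 0.00, 0.02 and -0.01 with siRNA 2. The mitochondrial ones were then 0.05, 0.12 and 0.04 with siRNA 1 and 0.12, 0.00 and -0.02 with siRNA 2. Cytosolic medians were higher in every siRNA 1 library than in any siRNA 2 library under both settings. The mitochondrial medians of the siRNAs overlapped under both.

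None of the 3 scaffold genes was called by edgeR in any of the 3 comparisons, and none had an unadjusted p under 0.05 or was called by DESeq2 or limma-voom. AIMP2 (0.16 ± 0.10 with siRNA 1, 0.21 ± 0.10 with siRNA 2) and EEF1E1 (0.11 ± 0.10 and 0.19 ± 0.10) had positive values. AIMP1 had -0.10 ± 0.14 and 0.11 ± 0.14, with 43.7 CPM in siRNA 1 replicate 1 against 64.7 and 67.5 CPM in its replicates. AIMP1 and EEF1E1 have the lowest GC content of the members, 36.3 and 36.9% of the longest transcript. With siRNA 2 against siRNA 1 they were at 0.21 and 0.08, and at -0.17 and -0.31, both then called, with the replicate number as a block and the GC trend removed together. Under that setting EEF1E1 was also called higher with siRNA 1 than in control (0.34).

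Genes that act beside the synthetases were counted in the edgeR fit of all 9 libraries and not under the alternatives. Of 31 ATF4 response genes 30 were measured, of which 16 rose with siRNA 1, 2 rose and 14 fell with siRNA 2, and 20 were lower with siRNA 2 than with siRNA 1. Over all genes, 3.72% were called higher with siRNA 1, and 6.15% higher and 7.61% lower with siRNA 2. Between the siRNAs, 12.3% were called lower with siRNA 2. No other gene of the list was called with siRNA 1 or in the direct comparison, whose median was -0.69. The list and its direction were known from earlier results of these data. ASNS, which makes asparagine, had a mean of 226 CPM with siRNA 1 and 68.5 CPM with siRNA 2 (-1.73 ± 0.07, adjusted p = 1.7e-06), and SLC7A5, an amino acid transporter subunit, 807 and 188 CPM (-2.10 ± 0.11, adjusted p = 1.5e-05). The transporter partner SLC3A2 differed by -1.40 ± 0.09 (adjusted p = 4e-05). ATF4 itself stood at 305, 296 and 308 CPM in control, 406, 364 and 365 CPM with siRNA 1 and 259, 244 and 236 CPM with siRNA 2, without overlap between groups. Over all genes, 17% lay wholly above control with siRNA 1 and 20.2% wholly below it with siRNA 2. Between the siRNAs, 19.2% lay wholly lower with siRNA 2. ATF4 is controlled mainly in translation, which these data do not measure.

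Other parts of tRNA biology were called at shares to be read against 7.08% of all genes with siRNA 1, 13.8% with siRNA 2 and 22.4% between the siRNAs. Of 16 genes of the eIF2 kinases and eIF2 control, 1 rose with siRNA 1 (EIF2B2, 0.36 ± 0.09, adjusted p = 0.036) and 1 fell with siRNA 2 (PPP1R15A, an eIF2 phosphatase subunit, -0.35 ± 0.07, adjusted p = 0.014). Of 24 genes of tRNA processing and export, 3 rose and 1 fell with siRNA 1 and 2 rose and 1 fell with siRNA 2. POP1, a protein subunit of RNase P, was higher with both siRNA 1 (0.57 ± 0.07, adjusted p = 0.0021) and siRNA 2 (0.46 ± 0.07, adjusted p = 0.0034). They also included RTCB, the tRNA ligase, at -0.34 ± 0.08 with siRNA 1 (adjusted p = 0.036). Of 21 RNA polymerase III genes, 1 rose with siRNA 1 and 3 rose with siRNA 2, among them GTF3C4 (0.43 ± 0.08, adjusted p = 0.0086). Between the siRNAs, 4 of these 21 were higher and 3 lower with siRNA 2, against 1 higher and 3 lower of the 24 processing and export genes and 2 higher of the 16 eIF2 genes.

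Genes for the mitochondrial side were counted in the same way, to be read against the same shares of all genes (7.08, 13.8 and 22.4%). Of 13 mitochondrial translation factors, 0 were called by edgeR with siRNA 1 (2 at an unadjusted p under 0.05) and 2 rose with siRNA 2, GFM1 (0.38 ± 0.08, adjusted p = 0.010) and GFM2 (0.36 ± 0.08, adjusted p = 0.018). With siRNA 2 against siRNA 1, 3 of the 13 were higher and 1 lower. Of 16 genes of tRNA amidation, formylation, editing and mitochondrial modification, 3 rose with siRNA 1 and 2 fell with siRNA 2. MTFMT, which formylates the mitochondrial initiator tRNA charged by MARS2, rose by 0.35 ± 0.08 with siRNA 1 (adjusted p = 0.035). QRSL1, a subunit of the amidotransferase that completes the step begun by EARS2, was 0.56 ± 0.12 higher with siRNA 2 than with siRNA 1 (adjusted p = 0.011). Of 8 translation elongation factors, counted as a list apart from the mitochondrial ones, EEF1A2 rose with each siRNA. Its log2 change was 0.46 ± 0.09 (adjusted p = 0.013) for siRNA 1 and 0.44 ± 0.09 (adjusted p = 0.011) for siRNA 2.

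Counts of some members are uncertain because their exons overlap other genes in the annotation used, and reads of opposite strands cannot be told apart without strand. HARS1 and HARS2 overlap each other on opposite strands. Among the other called members, CARS1, GARS1, KARS1, MARS1, WARS1, AARS2, CARS2, EARS2 and NARS2 also overlap a gene on the opposite strand, and HARS2 shares exonic bases with ZMAT2 on its own strand. QARS1 and MARS1 each contain a microRNA gene on their own strand, and VARS2, which was not called, overlaps GTF2H4 there. AARS1, EPRS1, FARSB, SARS1, TARS1, MARS2, PARS2 and RARS2 overlap no other gene's exons there.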

How the data were processed

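The authors deposited 1 table of raw counts per Ensembl gene identifier for 9 libraries, which the labels describe as raw counts. Per the submitters' processing notes, hg19 was the genome build. No source used here names the aligner, counter or annotation, or says whether strand was used. Groups came from the sample titles. Genes were kept by filterByExpr of edgeR 4.0.16 (R 4.3.3; minimum count 10, minimum total 15) and tested in 1 model of group means over all 9 libraries with TMM factors, glmQLFit and glmQLFTest, two-sided. A gene was called at a Benjamini-Hochberg adjusted p under 0.05 over the genes tested. CPM were computed from the deposited counts with library totals times TMM factors, and CPM per kb used the longest GENCODE transcript. Standard errors were derived from the F statistic. The GC trend was a lowess, per library, of log2 CPM minus the gene's mean over all libraries on GC content. It was fitted on genes with a mean log2 CPM of 2 or more. The trends were centred across libraries and entered as offsets, with 668 genes without GC content left as they were. Alternatives were DESeq2 1.42.0, limma-voom (limma 3.58.1), other scaling, no filter, a replicate block, 6-library fits and each library left out. Libraries of one group differed by more than sampling noise, with a chi-square of 7.43 or more per gene. It was 76.3 and 73.6 for siRNA 1 replicate 1 against its replicates 2 and 3. For siRNA 2 replicate 1 against its replicates 2 and 3 it was 42.9 and 44.4. No other pair exceeded 10.4. On counts simulated for siRNA 1 against control over 20461 genes, the edgeR step recovered 99% of 100 genes changed by 1 log2 unit and 54% of 100 changed by 0.5. Of its calls 6.13% were false, and of those by DESeq2 10.7%. The simulated counts had the same spread for every gene, below the common coefficient of variation of 20% fitted to the data, and no GC trend. These shares may therefore not hold for the data.

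The members, the lists of other genes and the motif were chosen with earlier results of these data known. Per-library values are given for the 6 called members with the largest change in each comparison, for members against the direction of their set, and for others named beside them, which were chosen after their values were seen. In the other lists at most 4 called genes with the smallest adjusted p were eligible. A list of tRNA modification genes was also counted and is not reported here. Promoter sequences come from RefSeq (GRCh38.p14), matched by symbol. That build differs from the one of the counts, and it was used for sequences only.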

Additional observations from a re-analysis of the deposited data

How the results depend on the processing

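Of 30 calls of members in the 3 comparisons, 9 were kept in each of 18 alternatives, 6 of them in siRNA 2 against siRNA 1. For siRNA 1 against control, the 9 cytosolic calls were 14 with the GC trend removed and 15 without the 3 libraries with a GC trend (an alternative chosen after seeing the data), and the 2 mitochondrial calls were 1 with no filter and 4 without those libraries. For siRNA 2 against control, the 5 cytosolic calls were 8 with DESeq2, 2 with upper quartile factors and 3 with no filter. They were 10 with only the 2 groups compared. The 3 mitochondrial calls were 5 with DESeq2 or with the GC trend removed. Over all genes, 19.9% were called with DESeq2, 12.8% with upper quartile factors and 5.63% with no filter. With only the 2 groups 23.3% were called, and with the GC trend removed 21.1%. For siRNA 2 against siRNA 1, the 7 cytosolic calls were 11 with the GC trend removed, with or without a replicate block, and 12 without the 3 libraries, and the 4 mitochondrial calls were 2 with no filter, 1 with only the 2 groups compared and 2 without the 3 libraries. With each library left out in turn, the cytosolic counts ran from 2 to 14, 1 to 11 and 7 to 9 and the mitochondrial ones from 0 to 3, 0 to 5 and 1 to 5, in the order of the comparisons above.

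Signs turned, with a call under the alternative only, for VARS1 with siRNA 2 (0.16 with the GC trend removed, and 0.16 with the block as well) and, for siRNA 2 against siRNA 1, for SARS2 (0.23 and 0.23), for AIMP1 (-0.17) and EEF1E1 (-0.31) with block and GC trend removed, and for IARS1 (-0.15) and NARS1 (-0.13) without the 3 libraries. The cause was not tested. Same-numbered libraries of different groups deviated together with correlations of -0.0449 to 0.0962, so the numbers were not taken as pairs. With the replicate block alone, the cytosolic calls were 9, 4 and 10 and the mitochondrial ones 2, 3 and 4. The member with the lowest level, FARS2, had 3.89 CPM in its lowest library. With 3 libraries a group, leaving out a control also lowered the called share of all genes, from 7.08% to 2.02 to 2.2% for siRNA 1 and from 13.8% to 4.98 to 5.1% for siRNA 2.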
